A study of Mus musculus with 31 samples.

Results

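The transcriptional response of the neonatal mouse forebrain to hypoxia-ischemia (HI) was compared between 12 h and 3 h after the insult. The comparison used 6 of the 31 arrays of the series, 3 at each time, chosen by their titles. Each array held RNA of HI mice in the Cy5 channel and RNA of control mice of the same delay in the Cy3 channel, so every gene had a ratio of HI over control on each array. Values below are log2 ratios, on which 1 stands for a 2-fold rise by HI, and a difference is the mean ratio at 12 h minus that at 3 h.

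All mice were NMRI pups, an outbred stock, and were 5 days old (P5). HI pups had a permanent ligature of the right carotid artery and a later exposure to low oxygen, and the delay was counted from the end of hypoxia. Each sample was a pool of hemispheres, without the olfactory bulb, from 6 pups, labelled as 3 males and 3 females. The methods describe the pooled hemispheres as ipsilateral. The labels call the control a naive mouse and also list PBS as its treatment, while the methods describe animals without intervention. The treatment label of the HI channel names MgSO4, against the titles, the source names and the methods, and these samples were taken as HI without MgSO4. In pooled tissue, fewer cells of a type and less RNA per cell cannot be told apart.

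Across the 6 arrays, 60.3% to 66.5% of Cy5 spots and 59.9% to 65.9% of Cy3 spots were well above background, and none was saturated. The ratios of the 3 h arrays correlated with each other at 0.572 to 0.609 over probes, and those of the 12 h arrays at 0.226 to 0.653, the lowest value being that of replicates 1 and 3. The arrays lay on 3 slides, and 1 slide held both times, with replicate 3 of 3 h and replicate 1 of 12 h. Dyes were not swapped, so a dye effect specific to a gene is part of each ratio. It cancels in the difference between the times only if it was the same on all arrays, which was not tested.

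Lack of oxygen and blood flow depolarizes neurons and releases glutamate, and the calcium that then enters switches on immediate early genes, which need no new protein to be transcribed. Oxygen shortage itself stabilizes hypoxia-inducible factors, which turn on genes of vessel growth and glycolysis. Later, microglia and astrocytes respond with chemokines, interferon-stimulated genes and a reactive program that includes intermediate filaments.

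No gene passed the test for a difference between 12 h and 3 h at an adjusted p below 0.05 and a change of 1.5-fold or more (0 of 14879 genes, 0% in each direction, limma with Benjamini-Hochberg adjustment). The smallest adjusted p was 0.0648. At an unadjusted p below 0.05 and the same fold, 550 genes (3.7%) were higher at 12 h and 369 (2.48%) were lower. All 3 ratios of 12 h lay above those of 3 h in 2033 genes (13.7%) and below them in 1742 (11.7%). Without replicate 3 of the 12 h arrays, 1 gene passed the adjusted test, and 1275 were higher and 654 lower at the unadjusted p. Without replicate 1 of 12 h, 2 genes passed. When the spread was estimated over all 31 arrays of the series, with 23 residual degrees of freedom in place of 4, 28 genes (0.188%) were higher and 79 (0.531%) were lower at the adjusted threshold. All 107 had separate ratios at the times on the 6 arrays. The differences of that fit came from the same 6 arrays, so this is no independent support. Below, "31-array adjusted p" is the value of that fit, and all p-values are two-sided values of limma.

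Against control, 246 genes (1.65%) rose and 125 (0.84%) fell at 3 h, and 853 (5.73%) rose and 525 (3.53%) fell at 12 h, at the adjusted threshold in the fit of both times together. Of the genes that rose at 3 h, 129 also rose at 12 h, 116 were not called there and 1 fell. At 12 h, 724 genes rose that were not called at 3 h, which is no test of a difference between the times. These counts rested on single arrays. At 3 h the total of 371 became 0 without replicate 1 of the 3 h arrays, 0 without replicate 2, 4 without replicate 3, and 226 without replicate 2 of the 12 h arrays. At 12 h the total of 1378 became 1 without replicate 2 of the 12 h arrays, 2624 without replicate 3, and 2 when the 12 h arrays were fitted alone.

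The largest separate differences included inflammatory and interferon-related genes among those higher at 12 h, and transcription factors of the immediate early response among those lower. None of these 20 genes passed the test on the 6 arrays. Lilrb4a, an inhibitory receptor of myeloid cells, had log2 ratios of 1.15, 1.03 and 0.76 at 3 h and 3.38, 4.25 and 3.81 at 12 h. All 3 arrays of 12 h lay far above those of 3 h, and the difference was 2.84 ± 0.24 (SE, adjusted p = 0.0648, 31-array adjusted p = 0.00188). Its control signal at 12 h was not well above background on any array. The mean ratio there was 14.1-fold, beside 1.97-fold at 3 h, and is therefore no exact value.

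Several of the other genes higher at 12 h were measured in HI brains at 12 h and not in HI brains at 3 h. Saa3, an acute phase protein, had ratios of 0.51, 0.75 and 1.97 at 3 h and 2.79, 4.68 and 3.71 at 12 h. In the HI channel it was well above background on all 3 arrays at 12 h and on none at 3 h. Its mean signal there was about 6.99-fold higher at 12 h (adjusted p of the HI channel = 0.0736). By the same measure, HI brains at 12 h held about 6.16-fold higher signal of Msr1, a scavenger receptor of macrophages (adjusted p = 0.0575). For Ccl11, the eosinophil chemokine eotaxin, which 2 of the 3 arrays measured, it was about 5.93-fold (adjusted p = 0.0542). The change was about 5.8-fold for Ifit3b, an interferon-induced gene (adjusted p = 0.0659), and about 3.6-fold for Parp14, an ADP-ribosyltransferase (adjusted p = 0.103). These folds set the mean of the bright group against a dim signal. That was the weakest signal that counted as well above background on each array, or the dim probe's own signal where that was higher. With the probe's own signal the fold is the ratio of the means and not a lower limit.

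The higher genes were completed by Thsd4 (2.52 ± 0.29), Cd109 (2.31 ± 0.38) and Tmem200c (2.30 ± 0.52). The control signal of Thsd4 and of Tmem200c was not well above background at 12 h. In the HI channel alone their differences were 0.75 ± 0.42 and 0.73 ± 0.41. Lypd10 had the highest difference of all, 3.33 ± 0.89, but its HI signal was not well above background on any of the 6 arrays and its control signal only on 2 of 3 h, and no fold is given for it. All 20 genes kept their direction within the slide that held both times. Their selection for ratios that did not overlap fixed this in advance, so it is no further support.

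**Figure D1:**
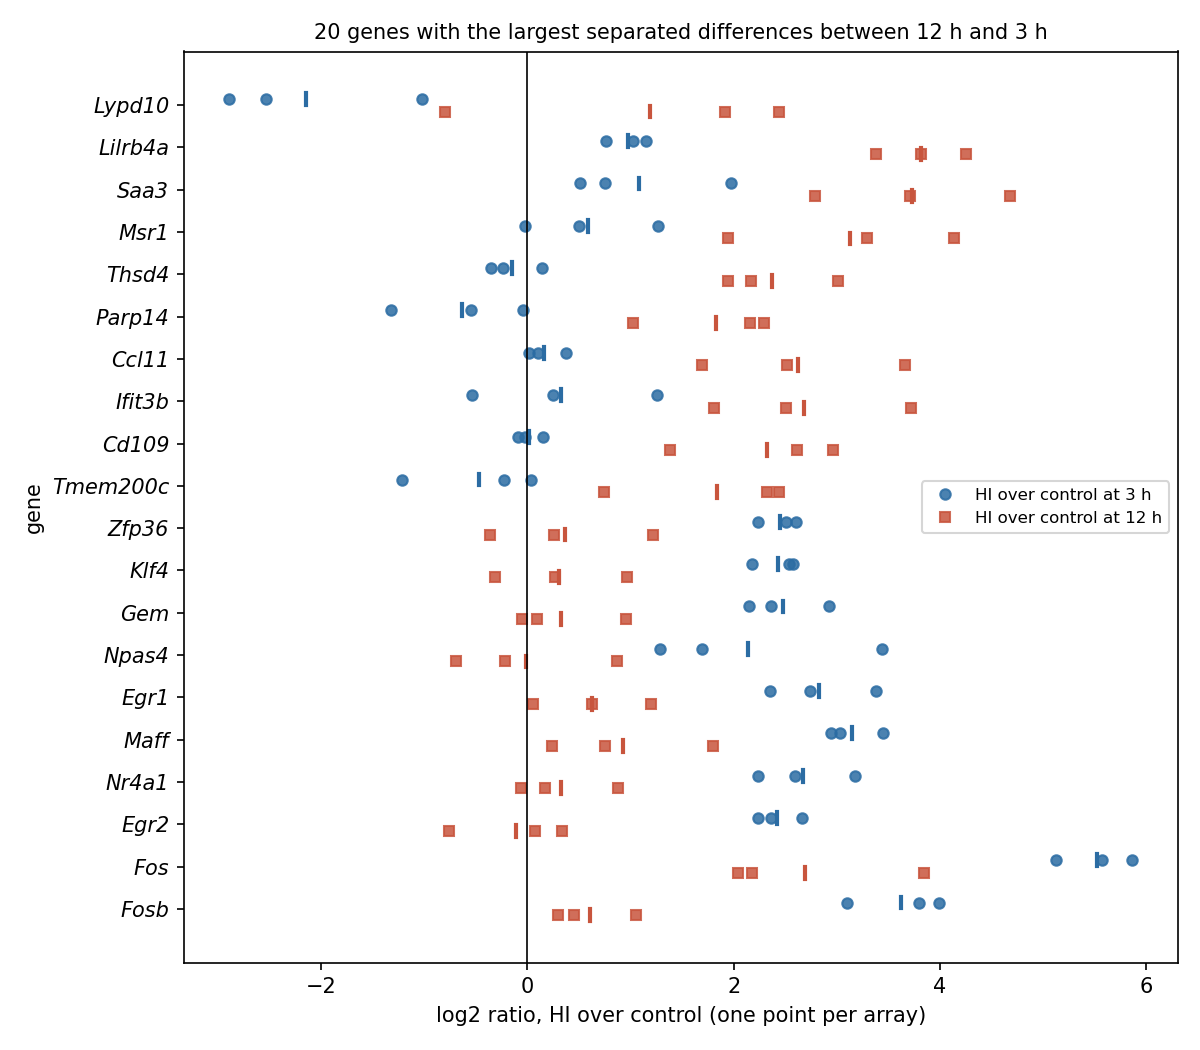
Log2 ratio of HI over control on each array (x axis) for the 20 genes with the largest differences whose ratios did not overlap between the times (y axis), with circles for the 3 arrays of 3 h, squares for the 3 arrays of 12 h and short bars for their means. Fos ran from 5.12 to 5.86 at 3 h and from 2.04 to 3.84 at 12 h, whereas Cd109 lay between -0.09 and 0.15 at 3 h and between 1.39 and 2.97 at 12 h.

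Immediate early genes were the list with the most negative difference. Of 33 listed genes 30 were tested, all but Egr3, Nr4a3 and Ptgs2, and their median log2 ratio was 1.69 at 3 h and 0.276 at 12 h, against -0.0264 and 0.00312 over all tested genes. The median difference was -1.47, beside 0.0347 over all genes. The list median was 1.64, 2.02 and 1.32 on the arrays of 3 h and 0.348, 0.523 and -0.0438 on those of 12 h, with no overlap. Against control, 21 of the 30 rose at 3 h (1.65% of all genes) and 4 rose at 12 h (5.73%), namely Fos, Jun, Atf3 and Ier3. On the difference itself, 22 of 30 were lower at 12 h at the unadjusted p (2.48% of all genes), 25 had separate ratios (11.7%) and 15 passed the 31-array fit (0.531%).

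The promoters of 3 members are shown because they hold the core of the cAMP response element (CRE), the site of CREB in calcium signalling. The sequences are the 250 bases before the start of transcription in RefSeq (GRCm38.p6), 5′ to 3′ on the strand of the gene, with every TGACG, or CGTCA for the other strand, in capitals. They lie at chr7:19310046-19310295 (minus strand) for Fosb, chr12:85473640-85473889 (plus strand) for Fos and chr15:101266596-101266845 (plus strand) for Nr4a1.
Fosb: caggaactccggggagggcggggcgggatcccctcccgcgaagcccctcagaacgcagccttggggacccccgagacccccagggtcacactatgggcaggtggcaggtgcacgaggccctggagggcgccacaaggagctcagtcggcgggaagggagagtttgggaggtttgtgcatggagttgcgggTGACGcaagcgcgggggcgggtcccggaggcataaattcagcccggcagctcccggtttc
Fos: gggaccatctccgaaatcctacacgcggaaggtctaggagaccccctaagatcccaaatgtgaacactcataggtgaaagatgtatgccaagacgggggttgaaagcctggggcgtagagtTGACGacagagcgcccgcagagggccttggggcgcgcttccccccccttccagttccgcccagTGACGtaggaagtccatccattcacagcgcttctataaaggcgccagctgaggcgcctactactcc
Nr4a1: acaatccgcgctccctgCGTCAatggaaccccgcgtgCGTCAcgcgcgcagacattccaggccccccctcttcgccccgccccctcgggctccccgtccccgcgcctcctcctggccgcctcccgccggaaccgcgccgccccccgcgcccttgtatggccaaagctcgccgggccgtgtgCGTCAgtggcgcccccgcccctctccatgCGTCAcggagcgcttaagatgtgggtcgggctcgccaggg
The core occurred 1, 2 and 4 times in these windows, and the copy nearest to the start began 60, 66 and 40 bases before it. Over all genes, 17.8% of 32851 windows held it. Of the tested immediate early genes, 25 matched the promoter table with 38 windows, of which 20 (52.6%) held the core. The core was also in 35% of the windows of cholesterol synthesis genes and in 28% of those of interferon-stimulated genes. A match describes these letters and is no evidence of binding.

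Fos, a founding member of the AP-1 transcription factors, had the highest mean ratio at 3 h among the immediate early genes. Its values were 5.57, 5.86 and 5.12 at 3 h and 2.18, 3.84 and 2.04 at 12 h, so HI raised Fos 45.8-fold at 3 h (adjusted p = 0.00774) and 6.44-fold at 12 h (adjusted p = 0.00787). The difference of -2.83 ± 0.48 had an adjusted p of 0.102 and a 31-array adjusted p of 0.000507. Its relative Fosb had ratios of 3.99, 3.79 and 3.10 at 3 h and 0.30, 1.06 and 0.45 at 12 h, with no overlap. The difference of Fosb was -3.02 ± 0.29 (adjusted p = 0.0648, 31-array adjusted p = 0.000171), an 8.12-fold change of the ratio. Replicate 2 was the highest array of 12 h for both genes.

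The zinc finger factors of the Egr family and the orphan nuclear receptor Nr4a1 were induced at 3 h and not called at 12 h. Egr2 had ratios of 2.66, 2.36 and 2.23 at 3 h and 0.34, 0.08 and -0.76 at 12 h (difference -2.53 ± 0.29, adjusted p = 0.0711, 31-array adjusted p = 0.000615). Egr1 had ratios of 2.74, 3.38 and 2.35 at 3 h and 0.63, 1.20 and 0.05 at 12 h (difference -2.20 ± 0.36, adjusted p = 0.098). Nr4a1 had ratios of 2.60, 3.17 and 2.24 at 3 h and 0.17, 0.88 and -0.06 at 12 h (difference -2.34 ± 0.32), and its 31-array adjusted p of 2.27e-06 was the smallest of that fit. In none of these genes did the times overlap.

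Npas4 and Arc are activity-dependent genes of neurons, the first a transcription factor and the second a regulator of synaptic receptors. Npas4 had ratios of 1.69, 3.44 and 1.28 at 3 h and -0.69, 0.87 and -0.21 at 12 h (difference -2.15 ± 0.63, adjusted p = 0.189), and its replicate 2 stood above the other arrays at each time. Arc had ratios of 1.62, 1.81 and 1.21 at 3 h and 0.36, 0.02 and -0.23 at 12 h (difference -1.5 ± 0.21, adjusted p = 0.0919, 31-array adjusted p = 0.109). The transcription factors Maff (-2.21 ± 0.38) and Klf4 (-2.12 ± 0.32) were among the 10 most negative genes of the table, as was Gem, a small GTPase that limits calcium channels (-2.15 ± 0.31). So was Zfp36, which destabilizes cytokine mRNA (-2.08 ± 0.38). Its HI signal was well above background on 2 arrays of 3 h and on none of 12 h, and its control signal on none. The mean ratio at 3 h was 5.46-fold (adjusted p = 0.0106) and is therefore no exact value. Nr4a2 was the 1 member with a positive difference (0.09), and Myc (-0.15) and Ier5 (-0.14) were also close to 0.

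**Figure D2:**
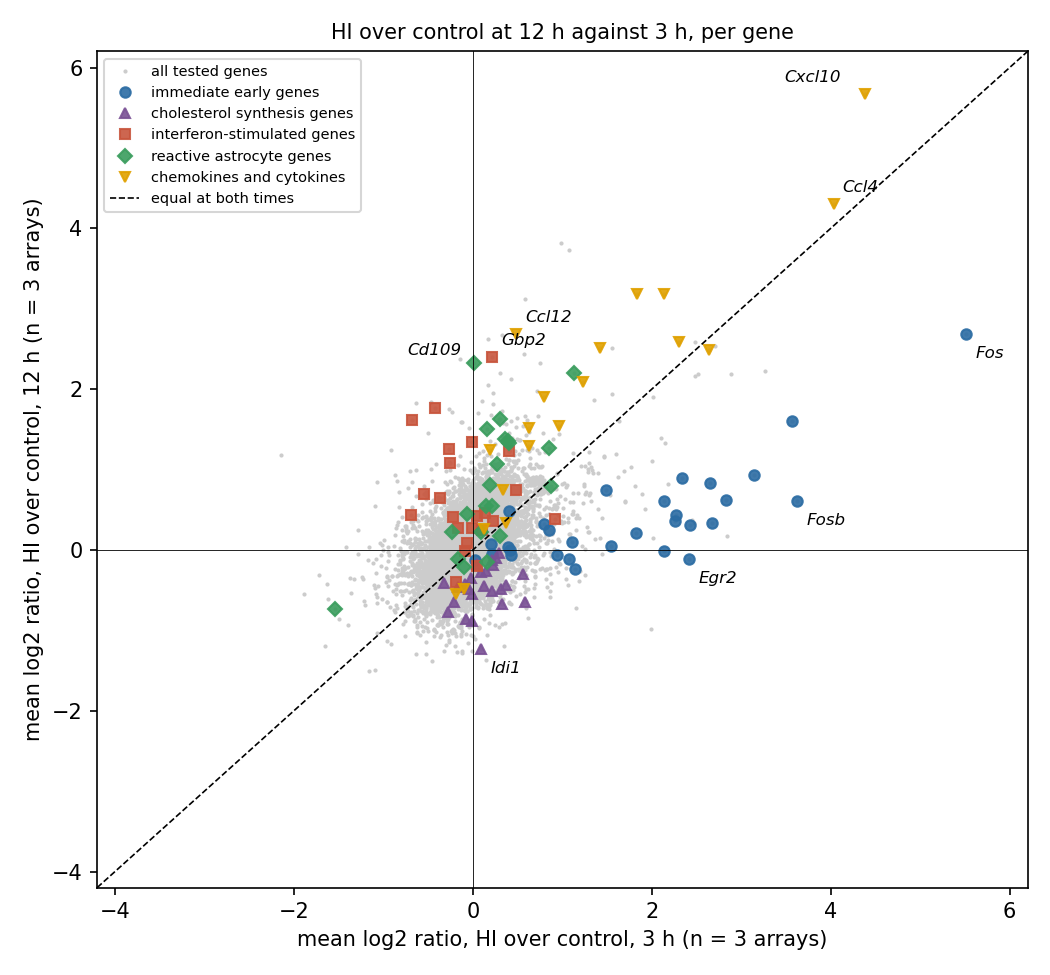
Mean log2 ratio of HI over control at 12 h (y axis) against that at 3 h (x axis) for the 14879 tested genes (grey), each the mean of 3 arrays, with 5 gene lists in colour and a dashed line where both times are equal. Most immediate early genes lie to the right and below the line, with Fos at 5.52 and 2.69, the cholesterol synthesis genes lie below it, and Cxcl10 (4.39 and 5.67) and Ccl4 (4.03 and 4.30) are high at both times.

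Targets of hypoxia-inducible factors had a smaller median difference of the same sign. Of 24 tested targets, 5 rose against control at 3 h (Adm, Vegfa, Slc2a1, Ddit4 and Ero1a, beside 1.65% of all genes) and 1 at 12 h (Eno1, beside 5.73%). On the difference, 6 were lower at 12 h at the unadjusted p (2.48% of all genes), and 2 were lower in the 31-array fit (0.531%). The median was 0.23 at 3 h and 0.129 at 12 h, with a median difference of -0.20, which was -0.0719 without replicate 3 of the 12 h arrays and -0.112 with another background correction. Adm, the vasodilator peptide adrenomedullin, had ratios of 2.39, 2.42 and 1.74 at 3 h and 0.23, 1.64 and 0.58 at 12 h (difference -1.36 ± 0.38, adjusted p = 0.175). Vegfa, the main angiogenic growth factor, had ratios of 1.19, 1.17 and 0.91 at 3 h and 0.01, 0.14 and 0.43 at 12 h (difference -0.89 ± 0.15, adjusted p = 0.103, 31-array adjusted p = 0.00108), and its second probe had a difference of -0.98. In both genes the arrays of 12 h lay below all those of 3 h.

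Ddit4, an inhibitor of mTOR, and Ankrd37 had positive ratios on every array of 3 h and negative ratios on every array of 12 h. Their differences were -0.83 ± 0.15 (31-array adjusted p = 0.00116) and -0.94 ± 0.21 (31-array adjusted p = 0.0953), and in Ankrd37 the HI channel differed by -0.09 ± 0.12 and the control channel by 0.86 ± 0.17. The glycolytic targets Ldha (-0.04), Pgk1 (0.07), Aldoa (0.15) and Hk2 (0.01) had differences near 0. Hk2, a hexokinase, had ratios of 1.07, 0.99 and 0.77 at 3 h and 0.66, 1.96 and 0.23 at 12 h, with replicate 2 of 12 h above the other arrays.

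Genes of the unfolded protein and ATF4 response had a median difference of -0.122 over 25 genes, of which 4 were lower at 12 h at the unadjusted p (2.48% of all genes). Atf4 itself, the transcription factor of the integrated stress response, had ratios of 0.92, 0.69 and 0.63 at 3 h and -0.11, -0.14 and -0.46 at 12 h, above 0 at the earlier time and below it at the later (difference -0.98 ± 0.15, adjusted p = 0.0919, 31-array adjusted p = 0.000507). The others were Ppp1r15a, which reverses the block of translation (-1.04 ± 0.19, 31-array adjusted p = 0.00297), Ddit3, a stress transcription factor (-0.77 ± 0.14), and Cebpb (-0.71 ± 0.18). The amino acid synthesis genes Psat1 (-0.05), Phgdh (-0.10) and Asns (0.20) had differences nearer to 0, and the cystine transporter Slc7a11 (0.65), Atf5 (0.54) and Sesn2 (0.53) had the most positive ones. The list median was -0.365 with slide as a block, -0.231 without replicate 2 of the 3 h arrays, -0.081 without replicate 1, -0.0536 without replicate 1 of the 12 h arrays, -0.196 without replicate 3 and -0.0675 with array weights.

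Every gene of cholesterol synthesis had a negative difference. These enzymes and their regulators share the transcription factor SREBP2 and supply the sterol of growing brain membranes. All 25 listed genes were tested, with a median of 0.0932 at 3 h and -0.445 at 12 h. The list medians of the single arrays were 0.0696, 0.0592 and 0.0799 at 3 h and -0.382, -0.52 and -0.504 at 12 h, with no overlap. The median difference was -0.449, and 0 of 25 genes had a positive value, against 8145 of all 14879 genes. At the unadjusted p 9 of 25 were lower at 12 h (2.48% of all genes), 17 had separate ratios (11.7%) and 7 passed the 31-array fit (0.531%). Against control none was called at 3 h and 7 fell at 12 h, beside 0.84% and 3.53% of all genes that fell.

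Idi1, the isomerase of the isoprenoid building blocks, had the largest difference, with ratios of 0.47, -0.13 and -0.06 at 3 h and -1.47, -1.17 and -1.07 at 12 h (-1.33 ± 0.20, adjusted p = 0.0919, 31-array adjusted p = 0.00108). Its control channel differed by 0.51 ± 0.13 and its HI channel by -0.82 ± 0.15. Insig1, which retains SREBP in the endoplasmic reticulum when sterols are plentiful, had ratios of 0.72, 0.80 and 0.24 at 3 h and -0.95, -0.63 and -0.37 at 12 h (-1.24 ± 0.21, 31-array adjusted p = 0.0144). Stard4, a carrier of cholesterol, had ratios of 0.48, 0.20 and 0.30 at 3 h and -0.66, -0.70 and -0.68 at 12 h (-1.0 ± 0.12, adjusted p = 0.0788, 31-array adjusted p = 0.0496), and its second probe had a difference of -1.33. The 12 h arrays of Stard4 lay close together, and all were below 0.

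Msmo1, a later sterol oxidase, had ratios of 0.19, -0.16 and -0.05 at 3 h and -0.93, -0.93 and -0.80 at 12 h (-0.88 ± 0.13, 31-array adjusted p = 0.00188). Its ratios were separate between the times. Hmgcs1, an early enzyme of the pathway, differed less (-0.35 ± 0.20, adjusted p = 0.401), with overlapping ratios of 0.06, -0.23 and -0.07 at 3 h and -0.04, -0.52 and -0.72 at 12 h, and within the slide that held both times its difference was 0.03.

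**Figure D3:**
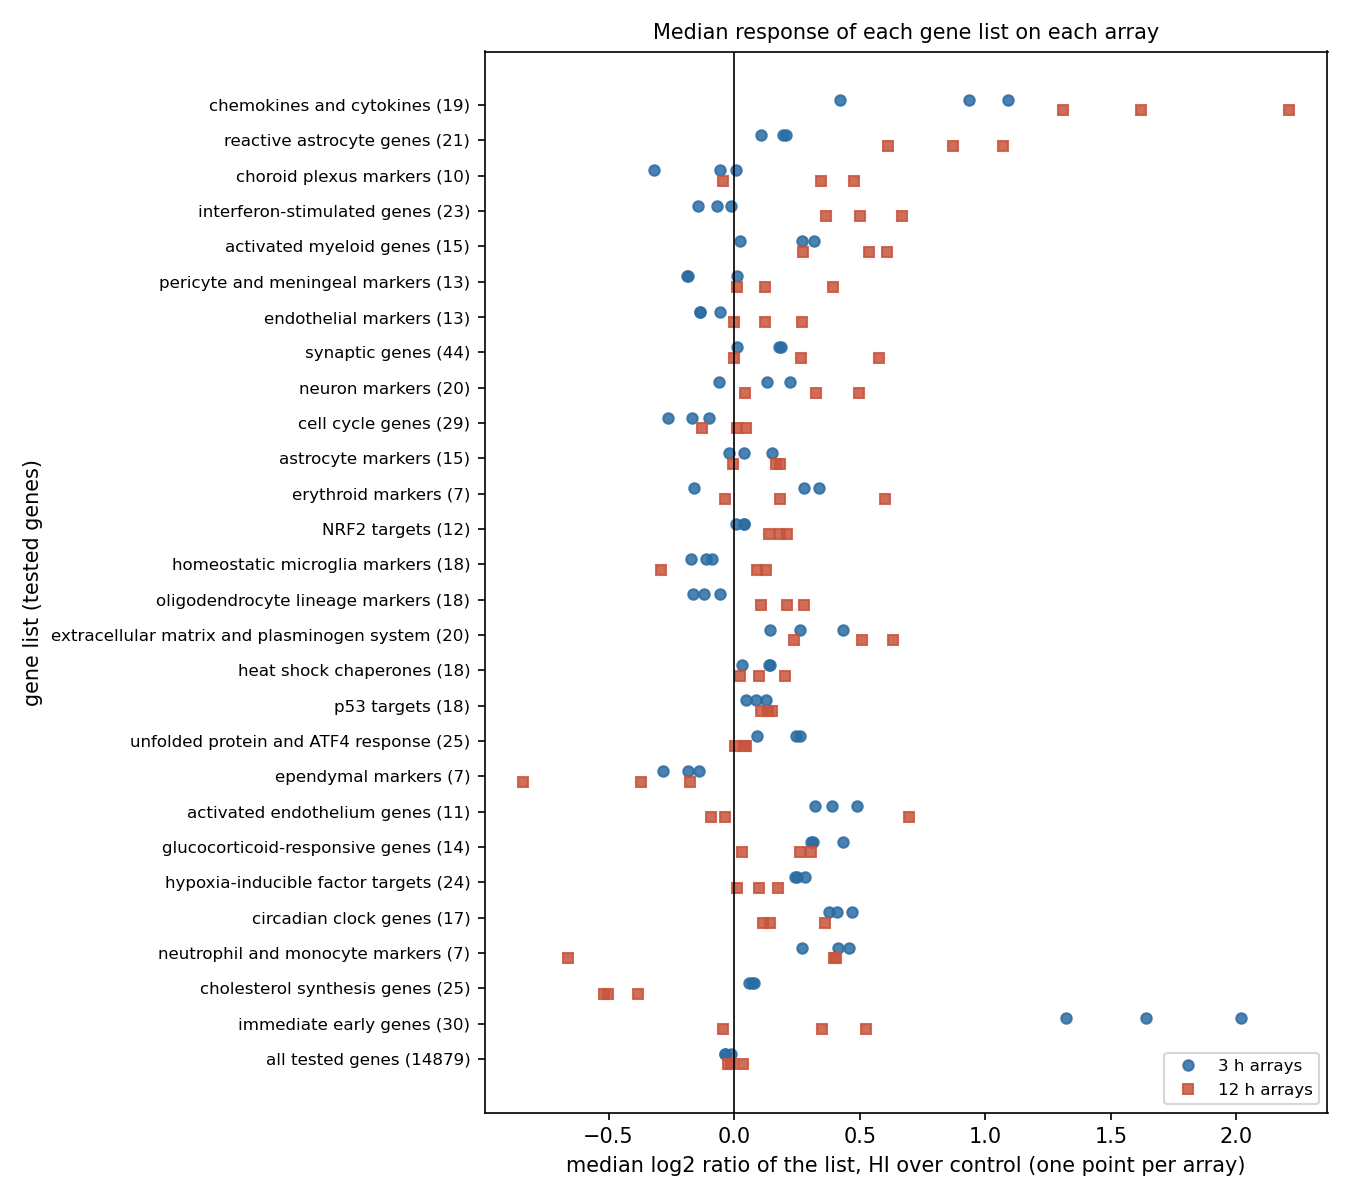
Median log2 ratio of HI over control (x axis) of each gene list (y axis, with the number of tested genes) on each array, with circles for 3 h and squares for 12 h. The arrays of the times are apart for immediate early genes, cholesterol synthesis genes, interferon-stimulated genes, reactive astrocyte genes and chemokines. They are also apart for hypoxia-inducible factor targets, the unfolded protein and ATF4 response, NRF2 targets, clock genes, and oligodendrocyte lineage and endothelial markers. The medians over all tested genes lay between -0.0356 and 0.0341.

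Interferon-stimulated genes had a median near control at 3 h and above it at 12 h. The median of the 23 tested genes of 28 was -0.0678 at 3 h and 0.434 at 12 h, with list medians of -0.0141, -0.145 and -0.0689 on the arrays of 3 h and 0.364, 0.669 and 0.5 on those of 12 h. Ifit1, Oas2, Irf7, Mx1 and Mx2 had no named probe that passed the filter on dim signals. None was called against control at 3 h and 9 rose at 12 h, beside 1.65% and 5.73% of all genes that rose. On the difference, 10 of 23 were higher at 12 h at the unadjusted p (3.7% of all genes), 10 had separate ratios (13.7%) and 4 passed the 31-array fit (0.188%). With normexp background correction and loess the first of these counts was 4, beside 130 of all 14879 genes.

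Gbp2 and Gbp3 code for guanylate-binding proteins, GTPases of defence within cells. Their promoters are shown because both hold the interferon-stimulated response element in the form TTTC, 2 bases of any kind and TTTC (for the other strand GAAA, 2 bases and GAAA), in capitals. The windows are again the 250 bases before the start in RefSeq (GRCm38.p6), at chr3:142620413-142620662 for Gbp2 and chr3:142559794-142560043 for Gbp3, both on the plus strand.
Gbp2: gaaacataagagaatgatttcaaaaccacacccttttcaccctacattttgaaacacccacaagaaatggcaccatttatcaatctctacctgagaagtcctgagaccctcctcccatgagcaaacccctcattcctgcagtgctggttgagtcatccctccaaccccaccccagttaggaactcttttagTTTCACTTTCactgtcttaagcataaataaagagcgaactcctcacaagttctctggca
Gbp3: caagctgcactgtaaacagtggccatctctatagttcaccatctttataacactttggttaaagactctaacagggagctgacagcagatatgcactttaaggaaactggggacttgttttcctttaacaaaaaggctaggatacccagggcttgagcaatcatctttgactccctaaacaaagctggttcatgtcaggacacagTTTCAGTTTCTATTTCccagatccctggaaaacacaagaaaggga
In Gbp2 the element began 59 bases before the start, and Gbp3 held 2 overlapping copies that began 45 and 39 bases before it. Such an element occurred in 2.98% of all windows and in 9 of the 25 windows (36%) of the 20 tested interferon-stimulated genes that the table holds.

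Gbp2 had ratios of 0.41, -0.12 and 0.36 at 3 h and 2.13, 2.62 and 2.45 at 12 h, a 4.55-fold change of the ratio (difference 2.19 ± 0.20, adjusted p = 0.0648, 31-array adjusted p = 0.000171). Gbp3 had ratios of -0.18, -0.34 and -0.29 at 3 h and 1.27, 1.42 and 1.06 at 12 h (difference 1.52 ± 0.13, adjusted p = 0.0648, 31-array adjusted p = 0.0104). Both were well above background in both channels on all 6 arrays, and Gbp3 was below control on every array of 3 h. Oasl2, of the oligoadenylate synthetase family, had ratios of -0.64, -0.52 and -0.12 at 3 h and 1.68, 2.06 and 1.56 at 12 h (difference 2.19 ± 0.20), but its control signal was well above background on 1 of 3 arrays at 12 h and its 31-array adjusted p was 0.114. Usp18, which removes ISG15 from proteins, had a difference of 2.30 ± 0.40, with its HI signal well above background on 1 of 3 arrays at 3 h. Irf1 (-0.54), Ifi27l2a (-0.24) and Stat2 (-0.21) had negative differences, and Irf1, an interferon regulatory factor, had the highest mean ratio of the list at 3 h (0.92).

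Chemokines and cytokines included genes induced at both times. Of the 19 tested of 27, 6 rose against control at 3 h (Cxcl10, Ccl2, Ccl3, Ccl4, Cxcl1 and Tnf) and 14 rose at 12 h, those 6 among them (1.65% and 5.73% of all genes). The median was 0.794 at 3 h and 1.9 at 12 h, and on the difference 6 of 19 were higher at 12 h at the unadjusted p (3.7% of all genes), 4 had separate ratios (13.7%) and 1 passed the 31-array fit (0.188%). The median difference was 0.66, and with normexp background correction and loess it was 0.139. Without replicate 2 of the 12 h arrays it was 0.355, and without replicate 2 of the 3 h arrays 0.438.

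Cxcl10, an interferon-inducible ligand of CXCR3, had ratios of 5.21, 3.83 and 4.12 at 3 h and 6.28, 6.27 and 4.47 at 12 h, which overlapped (difference 1.29 ± 0.57, adjusted p = 0.314). Its control signal was well above background on 1 of 3 arrays at each time. Ccl3 and Ccl4, macrophage inflammatory proteins that attract immune cells, differed little between the times. Ccl4 had ratios of 4.91, 3.99 and 3.20 at 3 h and 4.04, 4.88 and 3.99 at 12 h (difference 0.27 ± 0.45, adjusted p = 0.773), and Ccl3 had a difference of 0.28 ± 0.30. Both turned negative with normexp background correction and loess (-0.11 and -0.19).

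Ccl12, a ligand of CCR2, had ratios of 0.71, 0.00 and 0.74 at 3 h and 1.78, 3.15 and 3.14 at 12 h (difference 2.21 ± 0.41, adjusted p = 0.109, 31-array adjusted p = 0.0137), with no overlap. Ccl2, another ligand of that receptor, was already induced at 3 h, with ratios of 2.31, 2.05 and 2.05 at 3 h and 2.46, 3.67 and 3.41 at 12 h (difference 1.04 ± 0.31, adjusted p = 0.19). The inflammatory cytokines Il6, Il1b and Tnf had differences of 1.35 ± 1.04, 0.86 ± 0.52 and 0.57 ± 0.27, with overlapping ratios, and the chemokine Ccl9 one of 1.1 ± 0.41. Il6 had ratios of 1.86, 0.02 and 3.65 at 3 h and 1.47, 4.18 and 3.91 at 12 h, a difference of -2.18 with slide as a block, and was well above background in the control channel on 1 array of 3 h and on none of 12 h.

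Genes of reactive astrocytes had a larger median difference than markers of astrocytes in general. Of 21 tested reactive genes, 10 were higher at 12 h at the unadjusted p (3.7% of all genes), 10 had separate ratios (13.7%) and 3 passed the 31-array fit (0.188%), with a median difference of 0.515. The first count was 4 with normexp background correction and loess, beside 130 of all 14879 genes. Of 15 astrocyte markers 1 was higher at the unadjusted p, with a median difference of 0.131 (0.0522 to 0.243 over the alternatives), and the difference between the lists was not tested. Gfap, the intermediate filament of astrocytes, had ratios of 0.14, 0.29 and 0.49 at 3 h and 1.45, 1.66 and 1.78 at 12 h (difference 1.32 ± 0.15, adjusted p = 0.0711, 31-array adjusted p = 0.0102). HI thus raised it 3.1-fold at 12 h (adjusted p = 0.0056), and its other probes had differences of 1.55 and 1.25. Vim, another filament gene, had ratios of 0.54, 0.11 and 0.54 at 3 h and 1.25, 1.74 and 1.1 at 12 h (difference 0.96 ± 0.21, adjusted p = 0.127).

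Cd109, S1pr3 and Cd14 were the other leading reactive genes. The membrane protein Cd109 had ratios of 0.15, -0.09 and -0.02 at 3 h and 2.61, 2.97 and 1.39 at 12 h, with a control signal well above background on 1 of 3 arrays at 12 h. S1pr3, a receptor of sphingosine 1-phosphate, had ratios of 0.07, 0.20 and 0.20 at 3 h and 1.44, 1.76 and 1.31 at 12 h (difference 1.35 ± 0.15, adjusted p = 0.0711, 31-array adjusted p = 0.0104). The difference of S1pr3 was 0.65 ± 0.15 in the HI channel and -0.69 ± 0.15 in the control channel. Cd14, the co-receptor of endotoxin, rose against control at both times, with a difference of 1.07 ± 0.22. Among the astrocyte markers, the bicarbonate transporter Slc4a4 (0.78 ± 0.19), Aldh1l1 (0.48 ± 0.18), the connexin Gjb6 (0.46 ± 0.16) and the sodium pump subunit Atp1b2 (0.45 ± 0.20) had the largest differences. In Slc4a4 that was -0.01 ± 0.20 in the HI channel and -0.78 ± 0.29 in controls. The mean ratio of Gjb6 was -0.51 at 3 h and -0.05 at 12 h, so it did not rise above control.

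Of 15 tested genes of activated myeloid cells, 5 were higher at 12 h at the unadjusted p (3.7% of all genes) and 1 was lower (Cd86, -0.79, beside 2.48%). Against control 0 were called at 3 h and 6 rose at 12 h (1.65% and 5.73% of all genes). Msr1, Gpnmb (1.70 ± 0.28), the Fc receptor Fcgr1 (1.64 ± 0.64) and the galectin Lgals3 (1.07 ± 0.26) had the largest differences. With normexp background correction and loess the count of 5 became 1, beside 130 of all 14879 genes. The control signal of Gpnmb was not well above background at 12 h, where HI raised it about 4.19-fold (adjusted p = 0.0064). Fcgr1 overlapped between the times and was well above background in HI brains on 1 of 3 arrays at 3 h. The median of the 18 homeostatic microglia markers was -0.102 at 3 h and -0.0833 at 12 h, and their median difference ran from -0.259 to 0.249 over the alternatives. P2ry12, the purinergic receptor of resting microglia, had ratios of -0.44, -0.33 and -0.34 at 3 h and -1.60, -1.15 and -0.47 at 12 h (difference -0.71 ± 0.27, adjusted p = 0.266). Cx3cr1, the fractalkine receptor of the same cells, had the opposite sign, with ratios of -0.36, -0.35 and -0.09 at 3 h and 0.30, 0.55 and 0.22 at 12 h (0.62 ± 0.14, adjusted p = 0.135), as had Fcrls (0.59 ± 0.16) and the complement gene C1qc (0.49 ± 0.15).

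The extracellular matrix and plasminogen list was mixed, with a median difference of 0.0329 that ran from -0.155 to 0.183 over the alternatives. Spp1, the secreted phosphoprotein osteopontin, had a difference of 1.48 ± 0.30 and passed the 31-array fit (adjusted p = 0.0305), and Timp1, an inhibitor of metalloproteinases, had 1.08 ± 0.31. Plaur, the urokinase receptor, and the protease Adamts1 rose against control at both times and had differences of -0.74 ± 0.27 and -0.71 ± 0.32. Among genes of activated endothelium, Esm1 (-1.42 ± 0.37), the vessel growth factor Angpt2 (-1.24 ± 0.35) and the peptide gene Apln (-0.79 ± 0.14) were lower at 12 h, and the clotting factor gene Vwf (0.76 ± 0.19) was higher, each with separate ratios and none past either fit.

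Markers of other cells that a hemisphere can hold are given next, and their part in the results above was not tested. Neutrophil and monocyte markers had list medians of 0.272, 0.412 and 0.456 at 3 h and -0.66, 0.404 and 0.399 at 12 h, over 7 of 14 listed genes, and replicate 1 of 12 h stood apart. Ly6g, Ngp and Ccr2, which define these cells, had no named probe that passed the filter on dim signals. S100a8 had ratios of 1.27, 0.87 and 1.13 at 3 h and -0.98, 1.52 and 1.25 at 12 h. Erythroid markers had list medians of -0.159, 0.277 and 0.338 at 3 h and -0.0362, 0.6 and 0.182 at 12 h, with differences from -0.03 to 0.36. Ependymal markers had a median difference of -0.124, with replicate 1 of 12 h again the lowest array at -0.84, and of 0.0272 without that array.

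Choroid plexus markers had a median difference of 0.474, with 5 of 10 higher at 12 h at the unadjusted p (3.7% of all genes), among them the water channel Aqp1 (0.97 ± 0.25), the carrier Ttr (0.76 ± 0.24), Kl (0.78 ± 0.31) and Kcne2 (0.63 ± 0.25), and none past either fit. The count was 1 without replicate 2 of the 12 h arrays and 1 without replicate 1 of the 3 h arrays, beside 460 and 378 of all genes. Within the shared slide the median was 0.0489 and 6 of 10 kept their sign. The mean ratio of Kcne2 was below control at both times (-0.96 at 3 h and -0.33 at 12 h). Pericyte and meningeal markers had a median difference of 0.278, led by the potassium channel Kcnj8 (1.05 ± 0.20), endothelial markers one of 0.227, led by Cdh5 (0.69 ± 0.21), and oligodendrocyte lineage markers one of 0.0855, led by Gpr17 (0.89 ± 0.20). With slide as a block the pericyte median was 0.00507, and the endothelial one turned to -0.151. Without replicate 2 of the 12 h arrays they were 0.0958 and 0.12, and the oligodendrocyte median was 0.0492 without that array and 0.233 without replicate 3.

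Neuron markers had a median difference of 0.184, with list medians of -0.0607, 0.222 and 0.129 at 3 h and 0.498, 0.325 and 0.0427 at 12 h, which overlapped. Without replicate 1 of the 12 h arrays the median was 0.105. All 20 passed the filter on dim signals, as did all 15 astrocyte and all 18 homeostatic microglia markers of the labelled brain tissue. Bcl11b, a factor of deep-layer cortical neurons, had a difference of 0.64 ± 0.40 and Tbr1, another cortical factor, one of 0.62 ± 0.36. Synaptic genes had a median difference of 0.196 over 44 genes, with Dlgap1 (0.69 ± 0.24) and Syt1 (0.64 ± 0.19) higher and the kainate receptor subunit Grik2 (-0.82 ± 0.19) lower at the unadjusted p, so that 2 of 44 were higher and 1 was lower, beside 3.7% and 2.48% of all genes. Their median was 0.0346 without replicate 1 of the 12 h arrays and 0.441 with slide as a block. A second probe of Grik2 had a difference of 0.19 and one of Dlgap1 had -0.06. Xist, transcribed from the inactive X chromosome, had a difference of -0.48 ± 0.15 and the Y-linked Ddx3y one of -0.11 ± 0.14 between pools labelled as balanced for sex.

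Circadian clock genes had a median of 0.373 at 3 h and 0.229 at 12 h, and Ciart (-1.07 ± 0.27), Nfil3 (-0.73 ± 0.14), Bhlhe40 (-0.67 ± 0.18) and Per1 (-0.60 ± 0.13) were lower at 12 h with separate ratios, Nfil3 with a 31-array adjusted p of 0.00297. The median difference of the clock genes was -0.367, and -0.181 without replicate 3 and -0.243 without replicate 2 of the 12 h arrays. Tsc22d3, a glucocorticoid-induced leucine zipper, had a difference of -0.79 ± 0.13 (31-array adjusted p = 0.0291). Hspa1a, the inducible HSP70, had ratios of 1.5, 1.92 and 2.25 at 3 h and 0.03, 2.03 and 0.03 at 12 h, so its mean at 12 h rested on replicate 2. Hmox1, the NRF2 target heme oxygenase, differed by -0.13 ± 0.20, Pmaip1, a p53 target that promotes cell death, by -0.60 ± 0.17, and Cdkn1a, the p53 target p21, by 0.28 ± 0.14. Mcm3, a subunit of the replicative helicase, led the measured cell cycle genes with 0.62 ± 0.14, since the higher Aurkb was not well above background in HI brains on any array. The HI channel of Mcm3 differed by 0.12 ± 0.11 and its control channel by -0.50 ± 0.14. The median difference was 0.0161 for heat shock chaperones, 0.106 for NRF2 targets, 0.0104 for p53 targets, -0.183 for glucocorticoid-responsive genes, 0.171 for cell cycle genes and -0.175 for activated endothelium. Over the alternatives these medians ran from -0.0677 to 0.0664, 0.0251 to 0.15, -0.0186 to 0.132, -0.232 to 0.0147, 0.068 to 0.23 and -0.431 to 0.0271, in the same order, so that those of heat shock, p53, glucocorticoid and activated endothelium genes lay on both sides of 0. Activated endothelium was at -0.431 without replicate 2 of the 12 h arrays, -0.0729 without replicate 1 and -0.02 without replicate 3, and glucocorticoid genes were at -0.0805 without replicate 3 and -0.11 without replicate 1 of the 3 h arrays.

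The difference of the ratios was then read in each channel, since the controls of 3 h and 12 h were different pools. Signals were centred on the 75th percentile of each array. In the HI channel 7 genes (0.047%) rose and 4 (0.0269%) fell from 3 h to 12 h at the adjusted threshold. Lilrb4a, Oasl2, Cd109, Xaf1, S100a4, Psmb8 and Igsf6 rose, and Fosb, Egr2, Atp8b2 and Per2 fell, of which Atp8b2 and Per2 were not well above background in HI brains at 12 h. At the unadjusted p 693 (4.66%) were higher and 333 (2.24%) lower. In the control channel 0 genes passed by limma, with 852 (5.73%) higher and 780 (5.24%) lower at the unadjusted p. The count of 11 in the HI channel was 4, 3 and 6 without replicates 1, 2 and 3 of the 3 h arrays, and 25 and 19 without replicates 1 and 2 of the 12 h arrays.

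Immediate early genes had a median difference of -1.41 in the HI channel and of -0.246 in the control channel. Fos differed by -4.21 ± 0.53 in HI brains and by -1.38 ± 0.12 in controls (adjusted p = 0.0659 and 0.0682), and Fosb by -3.79 ± 0.24 and -0.76 ± 0.17 (adjusted p = 0.00609 and 0.0683). Cholesterol synthesis genes had medians of -0.447 in HI brains and 0.0716 in controls, and interferon-stimulated genes had medians of 0.815 and 0.289. Synaptic genes had medians of -0.164 in HI brains and -0.375 in controls, and neuron markers of -0.102 and -0.317, so that for both lists a positive difference of the ratio came with lower signal at 12 h in both channels.

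**Figure D4:**
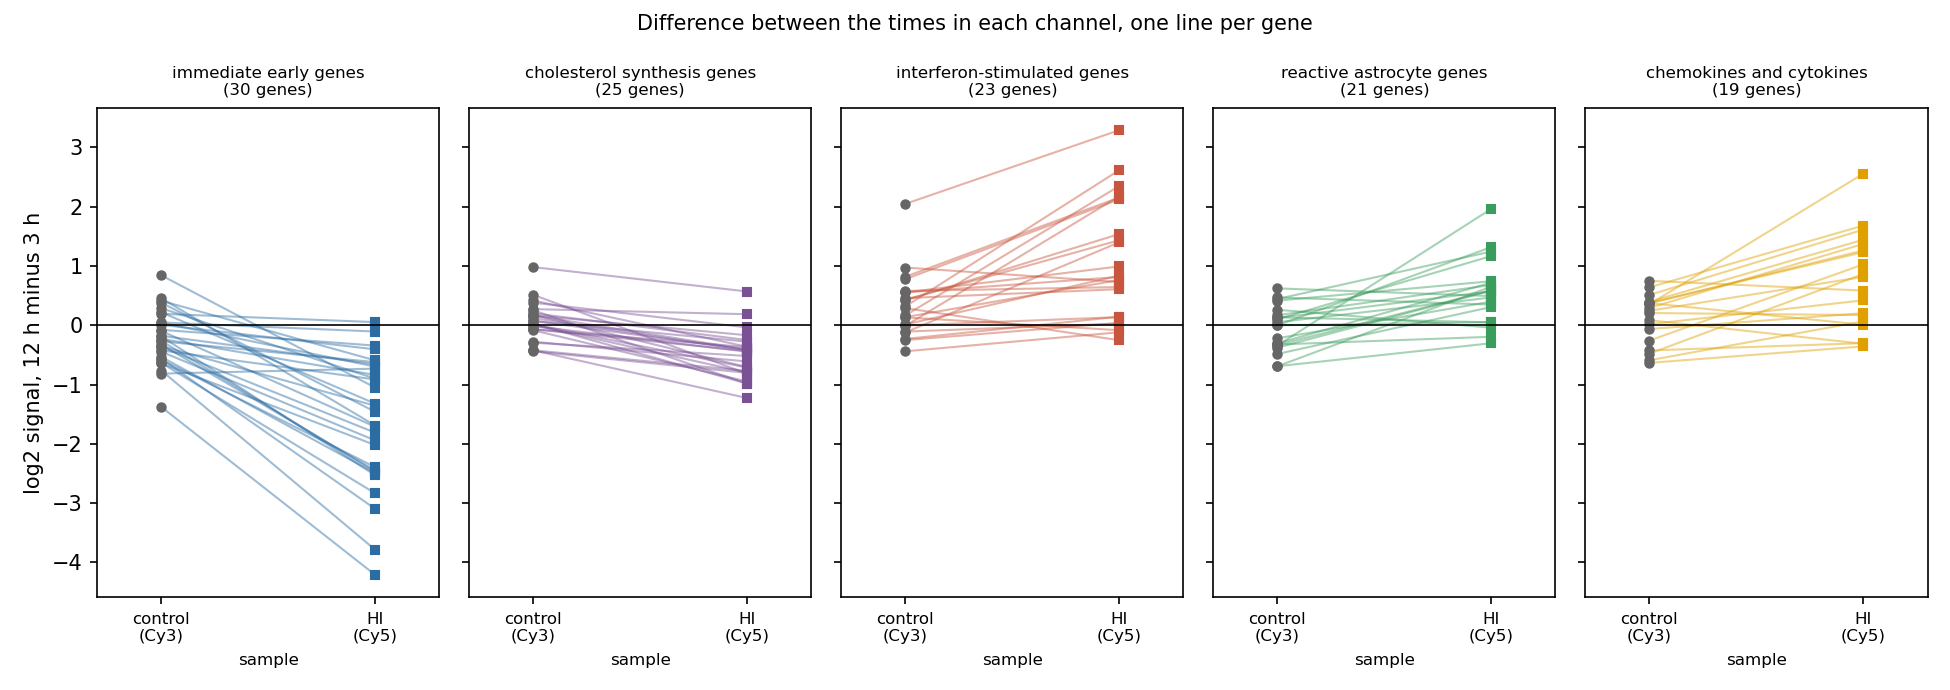
Log2 signal at 12 h minus that at 3 h (y axis) in the control channel (Cy3, circles) and in the HI channel (Cy5, squares, x axis), with a line for each gene of 5 lists. Immediate early genes had a median of -1.41 in HI brains and -0.246 in controls, and cholesterol synthesis genes one of -0.447 in HI brains and 0.0716 in controls.

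The pair of arrays on the shared slide was compared by sign with the full difference. Replicate 1 of 12 h minus replicate 3 of 3 h had the sign of the full difference in 28 of 30 immediate early genes (median -1.27), 22 of 25 cholesterol synthesis genes (median -0.515), 17 of 23 interferon-stimulated genes (median 0.428) and 20 of 21 reactive astrocyte genes (median 0.324), beside 11894 of 14869 genes with a value. The share of interferon-stimulated genes with the same sign was below that of all genes. These arrays are part of the full difference, which favours the same sign in any list. For neutrophil and monocyte markers that median was -2.11, and 2 of 7 erythroid markers kept their sign. With 3 pools at each time, the p-values other than the 31-array adjusted p measure the spread between these pools. The 31-array adjusted p takes its spread from all 31 arrays of the series, which include other treatments. Over all tested genes, the median standard deviation of the ratios was 0.12 at 3 h and 0.235 at 12 h. A common spread can therefore understate that of the 12 h arrays. Whether the other arrays of the series vary as these pools do was not tested.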

How the data were processed

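Pools of HI and control hemispheres were hybridized by the authors to 2-colour Agilent 4x44K mouse arrays. The deposited files hold processed intensity values of Agilent Feature Extraction 10.5.1.1, background-subtracted and dye-normalized (linear and LOWESS), and a deposited table of log10 ratios that equals the scanner's ratio column. Here log2 of the Cy5 over the Cy3 processed signal was used, without outlier spots, controls and probes with no symbol or a RIKEN symbol. Probes were kept if 2 or more of the 3 arrays of a time called one of their channels well above background. This left 19356 probes and 14879 genes, each gene read from its brightest probe. Of 39429 probes 69.5% carried 1 gene symbol.

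Ratios were fitted with limma 3.58.1 (R 4.3.3) on the 6 arrays, and called at an adjusted p below 0.05 and 1.5-fold. Named were the 10 genes of largest difference in each direction without overlap (Gm symbols left out, and all of them taken at the unadjusted p since none was called), the 4 of largest difference in each list, and a fixed set of response genes, of which some are not reported here. Members and lists were chosen with earlier results of these data known. Same-numbered arrays did not deviate together (correlations of -0.244, -0.0489 and -0.199), so the numbers were not used as pairs. Alternatives were another background correction, filter, normalization, variance model, slide block and leaving out each array. The number of arrays limits the precision.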

Additional observations from a re-analysis of the deposited data

Results flagged for a closer look

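Among 135 named genes, 18 had the ratio of every 3 h array on one side of 0 and of every 12 h array on the other. None passed the test of the difference on the 6 arrays, and 8 passed the fit over all 31 arrays. Most named genes were picked for a large difference, which favours both counts. The share of all genes with such a change of side was not counted. Ratios that did not overlap, a wider condition, occurred in 25.4% of all genes. With ratios above control at 3 h and below it at 12 h, the differences were -1.24 for Insig1, -1.0 for Stard4, -0.983 for Atf4, -0.945 for Ankrd37, -0.83 for Ddit4, -0.824 for Grik2, -0.794 for Apln, -0.788 for Tsc22d3 and -0.772 for Ddit3. In the opposite direction they were 0.623 for Cx3cr1, 0.624 for Mcm3, 0.77 for Mpo, 0.891 for Gpr17, 1.05 for Kcnj8, 1.52 for Gbp3, 2.19 for Oasl2, 2.30 for Usp18 and 2.46 for Parp14. In Ankrd37, Grik2, Tsc22d3, Mpo, Mcm3 and Gpr17 the control channel differed more between the times than the HI channel. The HI and control differences were -0.09 and 0.86 for Ankrd37, 0.01 and 0.84 for Grik2, and -0.26 and 0.53 for Tsc22d3. They were 0.02 and -0.75 for Mpo, 0.12 and -0.50 for Mcm3, and 0.27 and -0.62 for Gpr17. In the other flagged genes the HI channel differed more. Some of these signals were dim. The HI signal of Parp14 was well above background on 0 of 3 arrays at 3 h and its control signal on 0 of 3 at 12 h, so its difference is no exact value. The HI signal of Mpo was well above background on 1 of 3 arrays at each time, and that of Usp18 on 1 of 3 at 3 h, and the control signal of Oasl2 on 1 of 3 at 12 h.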

How the results depend on the processing

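Of 2916 values of named genes under the alternatives, 2700 kept their direction and side of the threshold, 189 passed it where they had not, and 27 reversed. The genes called between the times were 40 with normexp background and loess, 62 without background subtraction, 11 with probes well above background in both channels on all 6 arrays, 12 with such probes and the brightest of each gene (added after seeing the data), 107 over all 31 arrays, 1307 with array weights (weights 0.283, 4.21 and 0.29 for the 12 h arrays) and 0 to 2 without 1 array. At the unadjusted p, 130 were higher and 126 lower with normexp, 193 and 158 without background subtraction, 935 and 574 with array weights, 1177 and 556 with slide as a block, 378 to 1275 higher and 302 to 654 lower without 1 array. The fit over all 31 arrays gave 316 higher and the two-sample test of equal variances 343. The share higher was 59.8%, and 50.8% with normexp to 67.9% with the slide block.

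Against control, 0 to 494 genes were called at 3 h and 1 to 2624 at 12 h without 1 array, 561 and 2 with each time in its own fit, and 0 and 0 by the methods' t-test after Benjamini-Hochberg adjustment, which gave 470 and 756 unadjusted. The HI channel gave 5 genes with Aquantile and 3 to 25 without 1 array, and the control channel 0 to 2. With the replicate number as a block the HI channel gave 2 genes and the ratios 0, with 511 higher and 372 lower at the unadjusted p.

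Reversed differences were -0.193 and -0.0993 for Ccl3 and -0.114 and -0.0851 for Ccl4 with normexp and without background subtraction. They were 0.0853 for Pdk4, 0.289 for S100a8 and 0.129 for Hmox1 with array weights. With slide as a block they were -2.18 for Il6, 0.0291 for Pclo, -0.011 for Hba-a2, -0.227 for Hba-a1, -0.296 for Alas2, 0.0634 for Ddx3y, 0.0266 for Hmgcs1 and -8.7e-05 for Cdkn1a. Over the fits without 1 array, the difference ran from -0.0184 to 0.272 for Slc4a1, -0.0718 to 0.239 for Alas2, -0.148 to 0.707 for Ccl4, -0.0228 to 1.1 for Cdc6, -0.18 to 0.199 for Uty, -0.956 to 0.295 for S100a8, -0.248 to 0.0272 for Tekt1, -0.301 to 0.065 for Hmox1 and -0.199 to 0.0237 for Ddx3y. The cause was not tested. Dim probes and 3 pools a time limit all counts.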

Other observations

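Genes outside the lists that passed the fit over all 31 arrays included further regulators of signalling. These were chosen after their values were seen, and none passed on the 6 arrays. Klf2, a transcription factor of endothelial cells, had log2 ratios of 0.91, 1.44 and 0.83 at 3 h and -0.33, -0.16 and -0.82 at 12 h (difference -1.50 ± 0.23, 31-array limma adjusted p = 8.56e-05). Socs3, a feedback inhibitor of cytokine receptors, had ratios of 1.81, 1.78 and 1.52 at 3 h and 0.43, 0.89 and 0.51 at 12 h (difference -1.09 ± 0.16). Dusp6, a phosphatase of ERK, had a difference of -0.91 ± 0.13, Klf10 one of -1.37 ± 0.25 and Arid5a one of -1.23 ± 0.23. The noncoding RNAs Malat1 (-1.58 ± 0.40), Snhg5 (-1.26 ± 0.24) and Snhg16 (-1.01 ± 0.21) also had lower ratios at 12 h, as did the potassium channel gene Kcnj6 (-1.45 ± 0.17) and Gabrd, a subunit of extrasynaptic GABA receptors (-0.78 ± 0.13).

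In the other direction, the interferon-inducible GTPase Igtp had ratios of -0.74, -0.89 and -0.47 at 3 h and 0.87, 1.59 and 0.49 at 12 h (difference 1.69 ± 0.28), and the interferon-induced Rtp4 had -0.61, -1.05 and -0.88 at 3 h and 0.19, 1.44 and 0.95 at 12 h (1.70 ± 0.31). Both were below control on every array of 3 h and above it on every array of 12 h. Gpr84, a fatty acid receptor of myeloid cells, had a difference of 1.90 ± 0.39.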
